A study of Mus musculus with 4 samples.

Results

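Chemokine receptors, the proteins by which T cells find their way to chemokines, were followed in virus-specific CD8+ T cells through 7 genes, Cx3cr1, Cxcr3, Cxcr4, Cxcr5, Cxcr6, Ccr2 and Ccr7. They are the 7 of the 27998 listed genes whose symbols equal these names, and all 7 were found. The cells were taken on day 8 from spleens of mixed bone marrow chimeras infected with the Armstrong strain of lymphocytic choriomeningitis virus (LCMV), which mice clear as an acute infection. Bcl3 encodes Bcl-3, a nuclear protein of the IκB family that works with NF-κB. Each of 2 chimeras had received wild-type (WT, CD45.1) and Bcl3-/- (CD45.2) marrow, both on the C57BL/6 background, into sub-lethally irradiated Rag1-/- hosts, which make no T or B cells of their own but keep other blood cells. CD8+ T cells that bound the H-2Db tetramer loaded with the viral GP33 peptide were sorted by CD45 allele and measured by single-cell RNA sequencing, 1 library per genotype and chimera. The libraries are called WT1 and KO1 (chimera 1) and WT2 and KO2 (chimera 2), so that n = 2 libraries per genotype, and the genotype cannot be told apart from the CD45 allele. The age and sex of the mice were not given in the sources used here.

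Chemokine receptors are 7-span membrane proteins that couple to inhibitory G proteins and steer cells up gradients of secreted chemokines. A naive T cell carries Ccr7, which binds Ccl19 and Ccl21 and brings it into lymph nodes and the T cell zone of the spleen. Activated CD8+ T cells lose Ccr7 and gain receptors for chemokines made in inflamed tissue, among them Cxcr3, whose ligands are induced by interferon-γ, and Cx3cr1, the receptor of fractalkine, which marks cytotoxic effector cells that stay in the blood and the red pulp.

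Each library held between 20358780 and 22922219 molecules, counted by the unique molecular identifier (UMI) that each captured transcript receives before PCR. Cells were barcodes of 500 genes or more in which mitochondrial UMIs made up no more than 10%, and WT1, WT2, KO1 and KO2 held 4941, 8092, 5366 and 6494 of them. The median UMIs per cell were 3571, 2019, 3620.5 and 2948 in the same order, the order in which the values of 4 libraries are given throughout. A pair of libraries shared 37 to 63 barcodes, where 36.0 to 71.3 would be shared at random. Bcl3 itself was listed at 33.2, 108, 27.6 and 86.6 CPM (UMIs of a gene scaled to a total of 1000000). The level followed the chimera more than the genotype, and since the sources used here do not give which part of the gene was deleted, these counts from the 3′ end of the transcript do not check the genotype. For the same reason of 3′ counting, no level was scaled by gene length and the receptors are not ranked against each other.

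Clusters were found in each library with every chemokine receptor left out of the genes used for clustering, and were named from fixed marker genes that held no receptor. Clusters named from the list with Tcf7, Id3 and Dapl1 (called Tcf7-high) held 316, 442, 114 and 186 cells, and terminal effector-like clusters, with Gzma, Zeb2, Klrg1 and S1pr5, held 421, 1083, 1153 and 1076. Dapl1 was among the first 3 genes of the Tcf7-high cluster in every library, Tcf7 in WT1 and WT2, and Id3 in WT1 and KO2. Ccr7, a receptor followed here, was among them in WT2, KO1 and KO2. Cycling-like clusters (791, 1039, 549 and 691 cells) and interferon-stimulated-like clusters (381, 390, 448 and 401 cells) were also found in all 4 libraries. The largest share of T cells, 2717, 4762, 2710 and 3699, lay in clusters that met no list and stay unnamed. Among these were a KO1 cluster led by Tcf7, Il7r and Ltb and a KO2 cluster led by Il7r, Tcf7 and Cd7. No unnamed cluster of WT1 or WT2 had Tcf7 among its first 3 genes, so the Tcf7-high class leaves out Tcf7-led cells of the Bcl3-/- libraries. WT1 also had an unnamed cluster of 623 cells led by Il7r. Its Il7r level was 116 CPM, against 98.7 CPM in the KO1 cluster and 63.6 CPM in the KO2 cluster just named. The sort was not free of other cells, since B-like clusters of 105 to 134 cells and myeloid-like clusters of 118 to 218 cells were present in every library. Cd3e, Cd8a and Cd8b1 were detected in every T cell state, while Cd4 was at most 3.46 CPM outside the Tcf7-high clusters. Within the Tcf7-high clusters Cd4 reached 19.0, 23.7, 46.2 and 23.7 CPM, and in KO1 it was among the leading genes of that cluster.

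The 7 receptors divided by the cells that held their UMIs. Of the Cx3cr1, Cxcr3, Cxcr6 and Ccr2 UMIs, between 1.89% and 6.82% lay outside the T cell clusters in any library. Of the Cxcr5 UMIs, by contrast, 47.7%, 46.5%, 68.8% and 68.3% lay in the B-like clusters alone, which is where Cxcr5, the receptor of the follicle chemokine Cxcl13, is best known. Ccr7 was split, with 45.6%, 59.1%, 45.2% and 54.5% of its 215, 281, 126 and 189 UMIs in the Tcf7-high clusters and 38.1%, 13.5%, 27.8% and 22.2% outside the T cells. Cxcr4, the receptor of Cxcl12 that retains cells in the bone marrow, was close to absent with 17, 5, 31 and 38 UMIs per library, of which 5.88%, 60.0%, 71.0% and 63.2% lay outside the T cells. A total over all sorted cells is therefore mostly a T cell value for 4 of the receptors and a mixed one for Cxcr4, Cxcr5 and Ccr7. The myeloid-like class of KO1 and KO2 included a cluster led by S100a9, a neutrophil gene, which in WT1 and WT2 was under 1% of the cells and left out, so no genotype difference is read for that class.

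**Figure D1:**
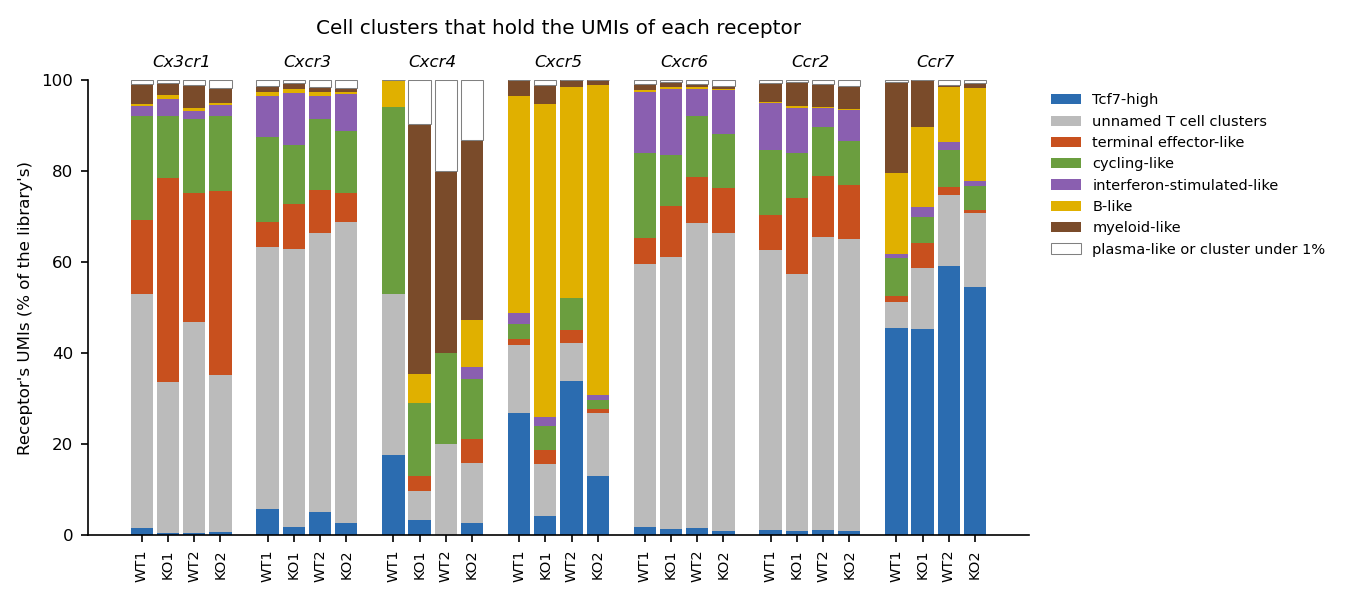
Each bar gives, for 1 receptor and 1 library, the percentage of its UMIs held by each class of clusters (y axis, 0 to 100%). Grey, the unnamed T cell clusters, fills most of the bars of Cxcr3, Cxcr6 and Ccr2, yellow, the B-like clusters, takes 46.5% to 68.8% of Cxcr5, and blue, the Tcf7-high clusters, takes 45.2% to 59.1% of Ccr7.

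Cx3cr1 was the receptor of the terminal effector-like clusters. Its level there was 131, 113, 256 and 228 CPM, against 13.8, 4.12, 16.8 and 18.6 CPM in the Tcf7-high clusters. The terminal effector-like level was 2.51 to 4.57 times the level of the unnamed clusters in the same library. It was 9.52 to 27.5 times the Tcf7-high level, which came from 4 to 16 UMIs a library and is read further on as background. These latter folds are therefore imprecise in either direction, and no size is read from them. Averaged over the 4 libraries, the order was terminal effector-like (182 ± 70.5 CPM, SD, n = 4), cycling-like (65.3 ± 24.8), unnamed (52.2 ± 12.4), interferon-stimulated-like (28.0 ± 14.8) and Tcf7-high (13.3 ± 6.45). Only the step from terminal effector-like to cycling-like clusters had no overlap between libraries, while the ranges of the other neighbours overlapped. Since the clusters were drawn from the same cells, these orders are descriptions and were not tested. The unnamed clusters were not uniform for Cx3cr1, with 1.66 to 2.80 times more in the highest than in the lowest of them. In WT1 the highest, at 82.8 CPM, was a cluster led by Klrg1 and Cx3cr1 itself. In WT1 and KO2 the lowest was the cluster led by Il7r, the receptor chain for the survival factor interleukin-7.

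Cxcr3 was spread over all T cell states. It was 417, 500, 341 and 385 CPM in the unnamed clusters and 309, 375, 156 and 145 CPM in the terminal effector-like clusters, so that the terminal effector-like level was 0.740, 0.750, 0.458 and 0.378 times the unnamed one. The mean levels over 4 libraries ran from 444 ± 53.0 CPM (SD, n = 4) in the interferon-stimulated-like to 246 ± 114 in the terminal effector-like clusters, and every pair of neighbours in that order overlapped. Terminal effector-like clusters were thus the highest for Cx3cr1 and, by the mean over both genotypes, the lowest for Cxcr3. In WT1 and WT2, however, Cxcr3 was lowest in the cycling-like clusters, at 287 and 367 CPM. The terminal effector-like clusters were the lowest in KO1 and KO2 alone, where the cycling-like clusters were at 226 and 281 CPM.

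Cx3cr1 lies on chromosome 9 (GRCm38, chr9:119901616-120069879, minus strand) and Cxcr3 on chromosome X (chrX:101731535-101734269, minus strand). Their promoters are shown because the terminal effector-like clusters were the highest for one and, by the mean over both genotypes, the lowest for the other. As given further on, their genotype differences were also opposite. The sequences are the 250 bases before to 50 bases after the RefSeq start on GRCm38.p6, 5′ to 3′ on the gene's strand, chr9:120068247-120068546 for Cx3cr1 and chrX:101734098-101734397 for Cxcr3. Capitals mark a relaxed kappa B match, the kind of site bound by the NF-κB proteins with which Bcl-3 works.
Cx3cr1: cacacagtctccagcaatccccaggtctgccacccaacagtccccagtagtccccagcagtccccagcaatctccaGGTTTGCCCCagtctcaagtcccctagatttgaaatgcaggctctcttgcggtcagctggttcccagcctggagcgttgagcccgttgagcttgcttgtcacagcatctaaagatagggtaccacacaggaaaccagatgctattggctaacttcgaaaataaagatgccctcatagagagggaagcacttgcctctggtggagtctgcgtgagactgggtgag
Cxcr3: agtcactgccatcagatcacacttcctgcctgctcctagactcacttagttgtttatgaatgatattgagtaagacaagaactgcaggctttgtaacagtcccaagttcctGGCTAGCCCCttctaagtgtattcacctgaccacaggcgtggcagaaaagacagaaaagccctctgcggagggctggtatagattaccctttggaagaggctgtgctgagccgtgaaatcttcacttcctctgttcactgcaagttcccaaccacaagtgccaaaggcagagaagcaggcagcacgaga
The pattern searched was GGG, any 5 bases and CC, on both strands, and each promoter held 1 match, on the strand opposite to the gene, with the first base 174 bases before the start in Cx3cr1 and 139 before it in Cxcr3. Of all 32851 promoters of this length, 50.8% held such a match, so its presence sets neither gene apart. The T-box core AGGTGT, held by 13.7% of promoters, and the interferon response core (GAAA, any 2 bases, GAAA), held by 3.44%, matched neither of them, nor the promoters of Cxcr4, Cxcr6 and Ccr2, the other 3 of the 5 receptors in the table.

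Cxcr6, the receptor of Cxcl16, and Ccr2, the receptor of Ccl2 and its relatives, shared a low level in the Tcf7-high clusters. Cxcr6 (chr9:123806475-123811760, plus strand) was 222, 369, 392 and 280 CPM there and 855, 1522, 816 and 1228 CPM in the unnamed clusters. Its mean was highest in the interferon-stimulated-like clusters (1470 ± 232 CPM, SD, n = 4), and the Tcf7-high range lay wholly below that of every other T cell state. Ccr2 (chr9:124101950-124113557, plus strand) was 50.8, 54.6, 122 and 101 CPM in the Tcf7-high clusters, 188 ± 28.8 CPM in the cycling-like clusters and 319 ± 18.2, 361 ± 59.0 and 365 ± 43.7 CPM in the terminal effector-like, interferon-stimulated-like and unnamed clusters (SD, n = 4). The ranges of Ccr2 in the Tcf7-high and cycling-like clusters overlapped neither each other nor that of the terminal effector-like clusters. Outside the T cells, Ccr2 reached 294 ± 40.9 CPM in the myeloid-like clusters, the cell type in which it is best known for the exit of monocytes from the marrow.

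Among T cell states, the levels of Ccr7 and Cxcr5 were highest in the Tcf7-high clusters. Ccr7 (chr11:99144196-99155077, minus strand) was 84.4, 171, 120 and 174 CPM there and at most 6.56 CPM in any other T cell state of any library. Cxcr5 (chr9:44511787-44561877, minus strand) was 19.8, 24.7, 8.39 and 21.96 CPM in the Tcf7-high clusters, from 23, 24, 4 and 13 UMIs, and at most 1.49 CPM in the other T cell states. Since the unnamed clusters held many more cells, they had 13, 6, 11 and 14 Cxcr5 UMIs, more than the Tcf7-high clusters in KO1 and KO2. In the B-like clusters Cxcr5 was higher than in any T cell state, at 139 ± 32.8 CPM, and Ccr7 was 93.9 ± 31.9 CPM (SD, n = 4). Cxcr4 (chr1:128588199-128592293, minus strand) reached 1.59 ± 1.12 CPM in the Tcf7-high clusters and less in every other T cell state, from at most 7 UMIs in any state of a library. At this depth no order of the states can be given for Cxcr4.

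**Figure D2:**
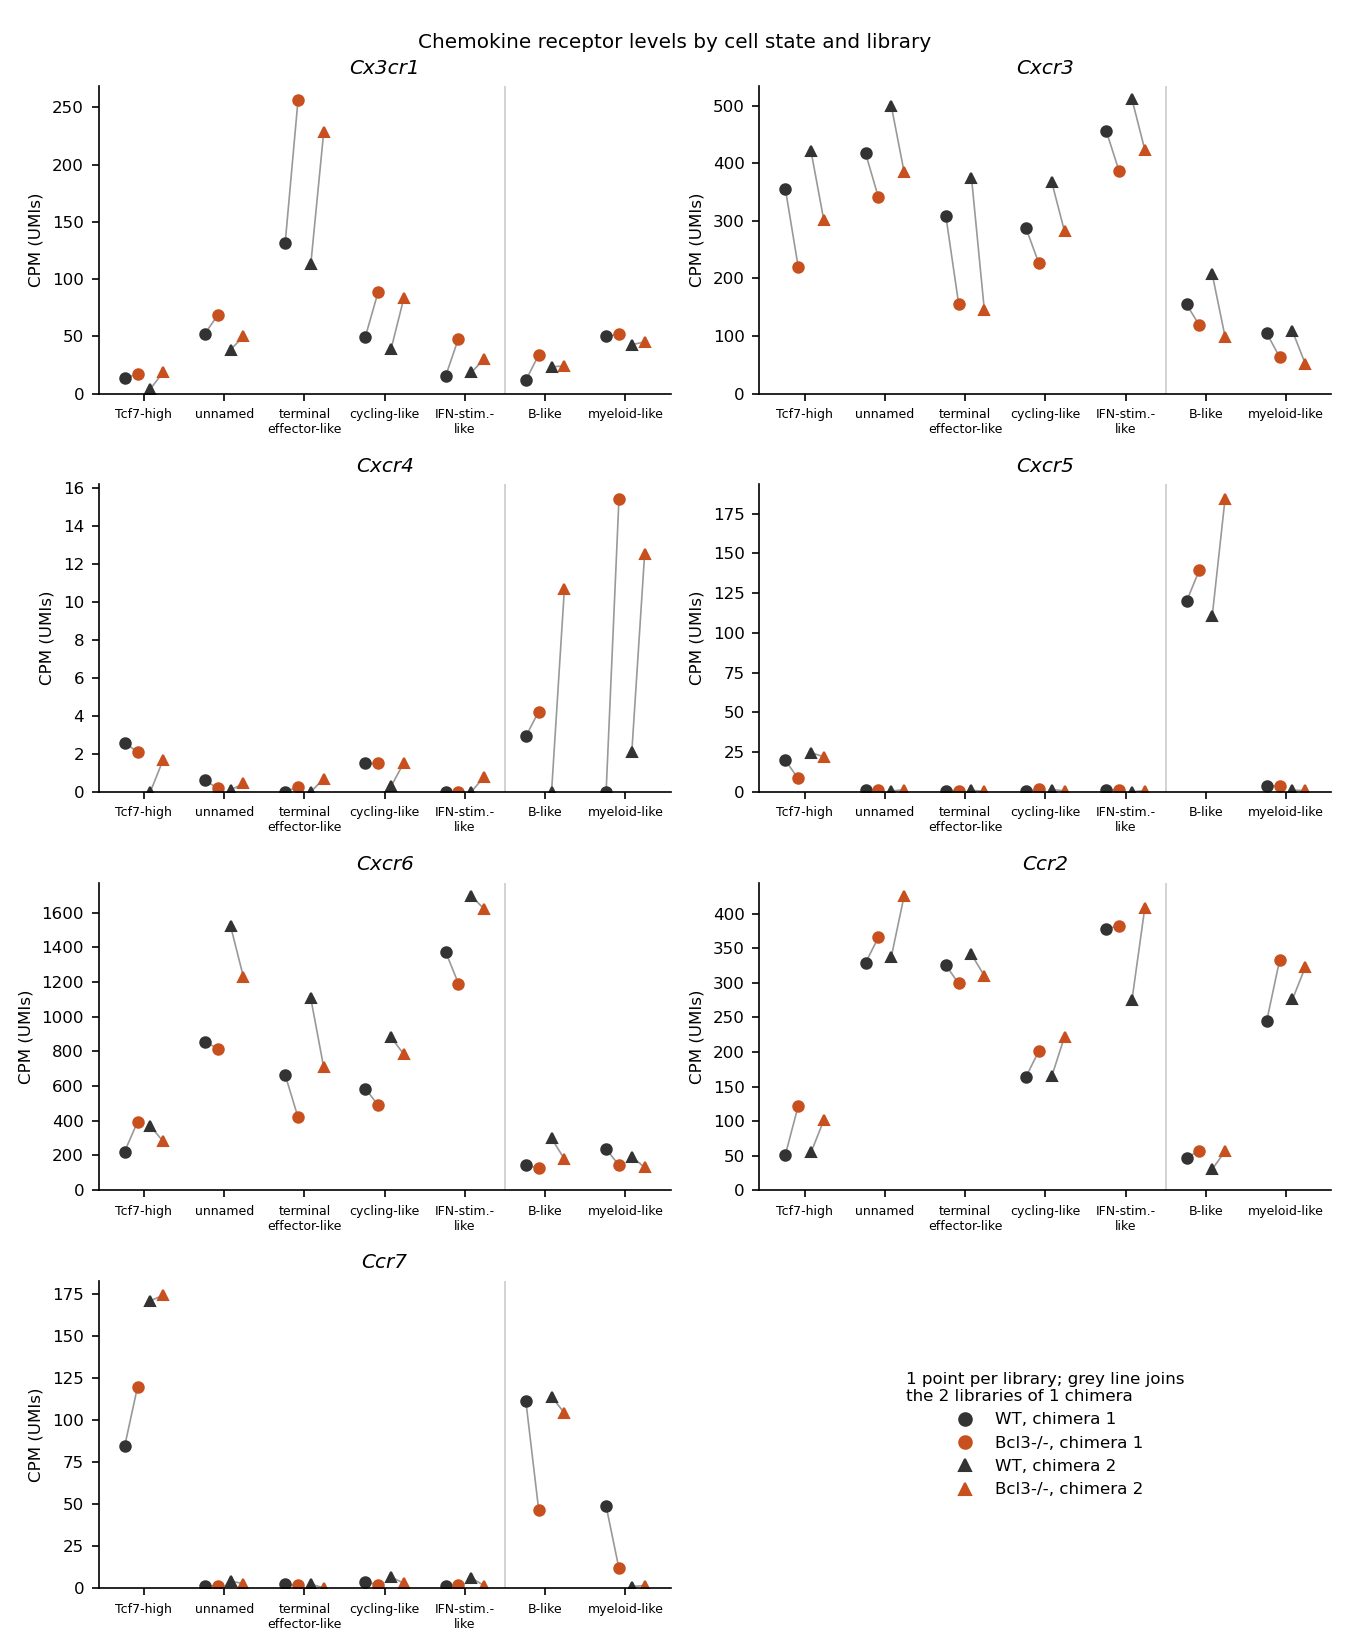
Level of each receptor in CPM (y axis, linear, from 0) in 5 T cell states and, right of the grey line, in B-like and myeloid-like clusters; each point is 1 library, and lines join the WT and Bcl3-/- libraries of 1 chimera. Cx3cr1 peaks at 113 to 256 CPM in the terminal effector-like clusters, Ccr7 at 84.4 to 174 CPM in the Tcf7-high clusters, and Ccr2 and Cxcr6 are lowest among T cell states in the Tcf7-high clusters.

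Shares of cells were compared after each cell was thinned to 1000 UMIs, since depth sets the share in which a UMI is seen. Among T cells, 49.5%, 66.5%, 45.9% and 60.2% had a Cxcr6 UMI and 31.7%, 35.1%, 24.3% and 26.8% a Cxcr3 UMI. Ccr2 UMIs were seen in 24.6%, 25.0%, 27.8% and 28.6% of T cells, and Cx3cr1 UMIs in 5.32% (exact Clopper-Pearson 95% interval 4.69 to 6.01), 4.24% (3.79 to 4.72), 9.82% (9.01 to 10.7) and 7.43% (6.78 to 8.12). Cxcr6 thus differed more between the chimeras than between the genotypes, whereas for the other 3 the WT and Bcl3-/- values did not overlap. By CPM in the T cell clusters, 43.3% of all genes tested did not overlap either, and the shares of other genes were not compared. Without thinning, Cx3cr1 was seen in 15.8%, 8.26%, 28.2% and 19.0% of T cells.

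Free RNA also gives UMIs in cells that do not express a gene, and B-like cells at the same thinned depth were taken as its measure. Without thinning, 29.5%, 16.8%, 23.1% and 18.8% of the B-like cells had a Cd8a UMI. Doublets with T cells were not removed, and whether B-like cells themselves express these receptors was not tested. There, Cxcr3 was seen in 14.3%, 13.5%, 5.22% and 5.47% of cells, Cxcr6 in 9.52% to 16.2%, Ccr2 in 0 to 3.91% (0 of 111 cells in WT2, which allows up to 2.70%) and Cx3cr1 in 1.56% to 2.99%. The T cell shares of all 4 receptors lay above these. In droplets of 10 to 100 UMIs, which hold mostly free RNA, Cxcr3 was 426, 336, 390 and 425 CPM, Cx3cr1 60.3, 7.83, 92.1 and 61.5 CPM, and the part of free RNA in the genotype differences was not tested. Within the Tcf7-high clusters, however, Cx3cr1 was seen in 1.27%, 0.469%, 0.877% and 2.16% of cells, which is at or below the B-like share in 3 of the 4 libraries and is read as background. Cxcr6 in the Tcf7-high cells (16.8%, 24.4%, 19.3% and 15.1%) lay above the B-like share in each library. Ccr2 in the same cells (6.33%, 3.99%, 6.14% and 7.03%, from 7 to 20 cells a library) lay close above it.

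Most T cells showed 1 or more receptors even at 1000 UMIs. No receptor UMI was seen in 25.7%, 16.4%, 28.1% and 20.4% of T cells, 1 receptor in 41.6% to 42.9%, 2 receptors in 24.3% to 33.1%, and 3 or more in 5.91% to 7.58%. Cells that held Cx3cr1 held Cxcr3 less often than independence gives, in 280 cells where 428 would be expected, and the ratio of observed to expected cells lay between 0.475 and 0.775 in the 4 libraries. Cxcr6 and Ccr7 were seen together in 27 cells where 107 would be expected (0.224 to 0.264). The pairs of Cxcr3 with Cxcr6 (1.06 to 1.14), Cxcr6 with Ccr2 (1.08 to 1.14) and Cxcr3 with Ccr2 (1.00 to 1.17) were at or above 1 in every library. Cells of different states and quality are pooled in these ratios, which are given as descriptions. Cxcr5 and Ccr7 met in 5 cells, where 0.358 would be expected.

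**Figure D3:**
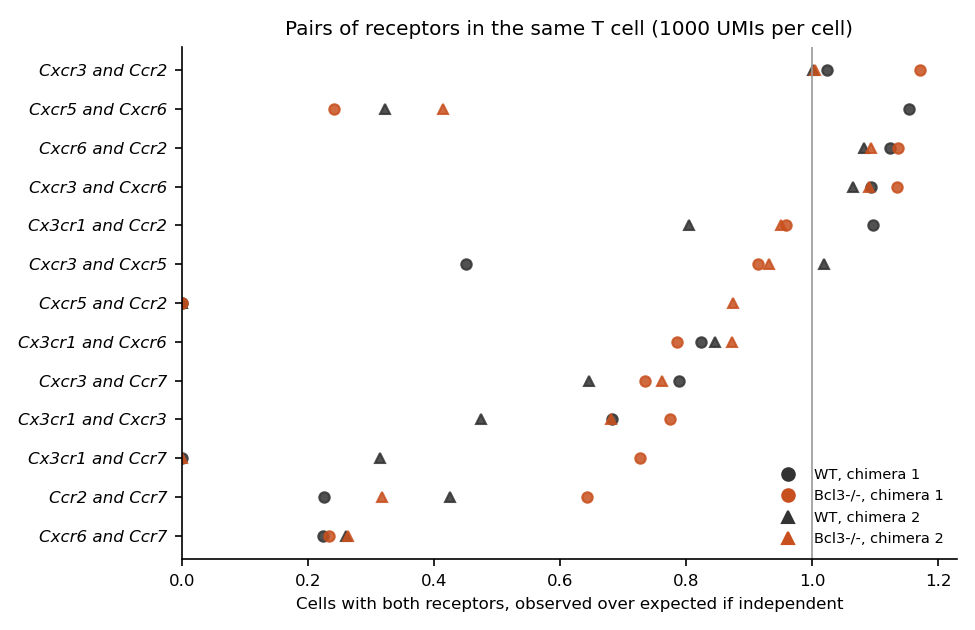
Ratio of observed to expected T cells with UMIs of both receptors (x axis, linear; 1 marks independence), for the pairs with at least 10 expected cells over the 4 libraries; each point is 1 library. The points of Cx3cr1 with Cxcr3 lie between 0.475 and 0.775 and those of Cxcr6 with Ccr7 between 0.224 and 0.264, while Cxcr3 with Cxcr6 and Cxcr6 with Ccr2 lie above 1.

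Between the genotypes, Cx3cr1 and Ccr2 were higher and Cxcr3 and Ccr7 lower in Bcl3-/- cells of both chimeras. Over all cells of a library Cx3cr1 was 50.2, 43.5, 99.7 and 76.5 CPM, and Cxcr3 was 356, 429, 270 and 309 CPM. Ccr2 was 264, 276, 313 and 351 CPM, with a narrow spread in WT. Neither Cx3cr1, Cxcr3 nor Ccr2 overlapped between the genotypes. Ccr7 was 10.6, 14.6, 5.78 and 8.78 CPM, again with every WT library above every Bcl3-/- library. Cxcr6, at 728, 1195, 659 and 990 CPM, overlapped, with both libraries of chimera 2 above both of chimera 1. Cxcr4 and Cxcr5 did not overlap, at 0.260 to 0.842 against 1.42 to 1.77 CPM and 3.69 to 4.26 against 4.40 to 4.69 CPM, but of their UMIs 5.88% to 71.0% and 47.9% to 74.0% lay outside the T cells.

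None of these 7 differences over all cells passed edgeR's test without a block on all 4 libraries. On counts summed per library, edgeR's quasi-likelihood test (Benjamini-Hochberg adjusted p under 0.05) called 0 of 7 receptors, where 0.363% of the 11566 genes tested were called. The genotypes did not overlap for 6 of 7, and for 44.5% of all genes tested. At an unadjusted p under 0.05, 5 of the 7 and 15.6% of all genes passed. DESeq2 called 2 of the 7, Cx3cr1 (adjusted p = 0.000320) and Cxcr3 (0.0130), and 1.74% of all genes. Without WT1 or without KO2, edgeR called Cx3cr1 (adjusted p = 0.0252 and 0.00809). The log2 fold changes, Bcl3-/- over WT, were 0.90 ± 0.17 for Cx3cr1 (SE; edgeR adjusted p = 0.0975), -0.46 ± 0.11 for Cxcr3 (adjusted p = 0.143), 0.28 ± 0.09 for Ccr2 (adjusted p = 0.230) and -0.81 ± 0.22 for Ccr7 (adjusted p = 0.168). With the chimera as a block, which uses that each WT library shares an animal with a Bcl3-/- library, edgeR called these 4 of 7, Cx3cr1 (adjusted p = 1.15e-05) and Ccr2 (0.0159) as higher and Cxcr3 (0.000866) and Ccr7 (0.00541) as lower. That fit called 9.65% of all genes, so 4 of 7 stands against a background of nearly 1 gene in 10. On 4 libraries it leaves 1 degree of freedom per gene for the spread between libraries. Its small p-values, here and below, therefore lean on a spread pooled over genes and are no measure of how animals vary.

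Within the T cell clusters Cx3cr1, Cxcr3 and Ccr2 had nearly the levels of all cells. Cx3cr1 was 51.7, 44.5, 105 and 80.1 CPM (log2 fold change 0.94 ± 0.17), Cxcr3 376, 455, 287 and 332 CPM (-0.44 ± 0.11) and Ccr2 273, 285, 321 and 363 CPM (0.28 ± 0.09). Ccr7, at 7.19, 13.9, 4.57 and 7.56 CPM, overlapped here, and Cxcr5 was lower in Bcl3-/-, at 2.27 and 2.11 against 1.25 and 1.60 CPM (log2 fold change -0.63 ± 0.31, not called), where over all cells it was higher. Without the block edgeR called 0 of 7, where 0.27% of 11111 genes were called. At an unadjusted p under 0.05, 4 of 7 passed (13.8% of all genes), DESeq2 called 2 of 7 (1.32%), 4 of 7 did not overlap (43.3%), and without KO2 edgeR called Cx3cr1 (adjusted p = 0.0325). With the block it called 5 of 7, adding Cxcr6 as lower (log2 fold change -0.21, adjusted p = 0.0329), at a background of 14.6%. The Cxcr6 libraries overlapped, at 775, 1288, 708 and 1072 CPM, and its fold change without the block turned positive when WT2 or KO1 was left out. Of the markers of other cell types in these clusters, the 6 B cell markers with counts summed to 191, 192, 184 and 148 CPM (Cd74 the most abundant), lower in both Bcl3-/- libraries. The 9 myeloid markers summed to 904, 646, 938 and 698 CPM, which overlapped, though in each chimera the Bcl3-/- library was the higher. The part of either set of markers in the receptor differences was not tested.

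The clearest genotype difference of these receptors lay in the terminal effector-like clusters. There Cxcr3 was 309 and 375 CPM in WT1 and WT2 and 156 and 145 CPM in KO1 and KO2, means of 342 ± 46.7 and 151 ± 7.43 CPM (SD, n = 2). Cx3cr1 in the same cells was 131 and 113 CPM in WT and 256 and 228 CPM in Bcl3-/-, means of 122 ± 12.7 and 242 ± 19.8 CPM. For both receptors the groups were far apart relative to the spread within a genotype. edgeR without the block called Cxcr3 as lower (log2 fold change -1.20 ± 0.13, adjusted p = 0.00212) and Cx3cr1 as higher (0.98 ± 0.15, adjusted p = 0.0145), 2 of the 4 receptors with enough counts, where 0.908% of 8484 genes were called. Of the 4 tested, 3 did not overlap, where 41.3% of all genes tested did not, and the other 3 receptors, Cxcr4, Cxcr5 and Ccr7, were at no more than 2.40 CPM. Both calls held in each of the 7 alternatives run, with adjusted p up to 0.0131 for Cx3cr1 and 0.00476 for Cxcr3.

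The same shift was seen in the share of cells. Of the terminal effector-like cells thinned to 1000 UMIs, 12.6% and 9.73% had a Cx3cr1 UMI in WT and 21.3% and 19.9% in Bcl3-/-, and for Cxcr3 the shares were 26.4% and 25.7% against 14.3% and 13.5%. Cxcr3 was also lower in Bcl3-/- in cells used as a measure of free RNA, with 14.3% and 13.5% of the B-like cells in WT against 5.22% and 5.47%, and 155 and 208 against 118 and 98.8 CPM in those clusters. The droplets of 10 to 100 UMIs did not separate the genotypes, with Cxcr3 at 426 and 336 CPM in WT and 390 and 425 CPM in Bcl3-/-. Cx3cr1 in the B-like clusters was 11.7 and 23.4 CPM in WT and 33.8 and 24.04 CPM in Bcl3-/-, from 4 to 16 UMIs a library, and the part of free RNA in either difference was not tested. Cxcr6 was 664, 1105, 420 and 709 CPM in these clusters, and the groups overlapped. Its log2 fold change of -0.68 ± 0.24 was not called (edgeR adjusted p = 0.262) except without WT1 (2.19e-05) or KO2 (0.00425), while the fit with the block called it (-0.67, adjusted p = 1.04e-06) together with the other 2, at a background of 4.94%. Ccr2 was 326, 341, 299 and 311 CPM, with the Bcl3-/- libraries below the WT ones by -0.15 ± 0.12 on the log2 scale (not called, edgeR adjusted p = 0.687).

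The clusters compared were not alike in every other respect. The 7 marker genes by which they were named, all of which were detected, summed to 5451, 6625, 8046 and 10041 CPM in them, with Gzma, a granzyme, the most abundant at 4384, 5389, 6678 and 8549 CPM. They held 8.52%, 13.4%, 21.5% and 16.6% of the cells, and KO1 had 2 such clusters where the other libraries had 1. In WT1 a cluster of 847 cells led by Klrg1 and Cx3cr1 stayed unnamed and was not part of this comparison, and what its absence does to it was not tested. With the larger cluster of KO1 alone, Cxcr3 differed by -1.27 (edgeR adjusted p = 0.00165) and Cx3cr1 by 1.02 (adjusted p = 0.0131) on the log2 scale. No difference in the share of cells is read from these counts, and the part of the marker genes in the receptor differences was not tested.

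Whether the genotype effect depended on the state was tested directly, in 1 edgeR fit over all states with the library as a block. The effect on Cxcr3 in the terminal effector-like clusters differed from that in the unnamed clusters by -0.83 ± 0.10 on the log2 scale (adjusted p = 1.70e-06) and the effect on Cx3cr1 by 0.59 ± 0.13 (adjusted p = 0.0156), where 0.811% of 9737 genes were called. These were 2 of the 6 receptors tested, and in the cycling-like and interferon-stimulated-like clusters the same test called 0 of 6 (0.0924% and 0% of all genes, Cx3cr1 alone at an unadjusted p under 0.05 in either). In the unnamed clusters themselves Cxcr3 was 417 and 500 against 341 and 385 CPM (log2 fold change -0.36 ± 0.11) and Cx3cr1 52.4 and 38.3 against 68.5 and 49.9 CPM (0.37 ± 0.21). The Cx3cr1 libraries overlapped there, and leaving out 1 library gave log2 fold changes of 0.0631 to 0.639. Ccr2 (-0.38 ± 0.10, adjusted p = 0.0552) and Cxcr6 (-0.46 ± 0.13, adjusted p = 0.130) did not pass, while at clustering resolution 1.2 they did (Ccr2 -0.40, edgeR adjusted p = 0.0241, and Cxcr6 -0.49, adjusted p = 0.0226). At resolution 0.4 WT1 had no terminal effector-like cluster, and nothing is read from that resolution for these clusters. At resolution 1.2, the finer clustering, the Cx3cr1 difference was 0.25 and no longer passed (edgeR adjusted p = 0.708), while that of Cxcr3 remained (-0.81, adjusted p = 0.000310).

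Ccr2 was the receptor called in the Tcf7-high clusters. Its level was 50.8 and 54.6 CPM in WT1 and WT2 and 122 and 101 CPM in KO1 and KO2, 1.09 ± 0.21 higher on the log2 scale (edgeR adjusted p = 0.0155). The groups did not overlap, and Ccr2 was the 1 receptor called of the 6 tested, where 0.606% of 6432 genes were called. Of the 6, 3 did not overlap, where 38.1% of all genes did not. The share of cells with a Ccr2 UMI after thinning did overlap, at 6.33% and 3.99% in WT and 6.14% and 7.03% in Bcl3-/-. Without KO1 the change was 0.90 and the adjusted p 0.0501, just past the threshold. Leaving out the 4.75% to 13.2% of Tcf7-high cells that had a Cd4 UMI gave 1.05 (adjusted p = 0.0237). The unnamed clusters of KO1 and KO2 with Tcf7 among their leading genes, and that of WT1 led by Il7r, were not part of this comparison. What their absence does to it was not tested. In the B-like clusters, as a measure of free RNA, Ccr2 was 38.4 ± 11.8 CPM in WT and 56.6 ± 0.699 in Bcl3-/- (SD, n = 2), so that the WT Tcf7-high level was near background, and its part in the difference was not tested. The difference of the Ccr2 effect between the Tcf7-high and the unnamed clusters (0.83 ± 0.22) did not pass (edgeR adjusted p = 0.435, 0.0103% of 9737 genes called), but at clustering resolution 1.2 it was 1.33 and passed (adjusted p = 1.64e-05).

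The other receptors of the Tcf7-high clusters were not called without the block. Cxcr3 was 356 and 421 CPM in WT and 220 and 301 in Bcl3-/- (log2 fold change -0.55 ± 0.17, edgeR adjusted p = 0.246), and it was called with the block (adjusted p = 0.00300), at a background of 2.22%. Ccr7 overlapped between the genotypes, with 84.4 and 171 CPM in WT and 120 and 174 in Bcl3-/- (0.25 ± 0.25, edgeR adjusted p = 0.867). The Tcf7-high clusters held 6.40%, 5.46%, 2.12% and 2.86% of the cells of a library. Their part in the lower Ccr7 over all cells was not tested. The sign of the Ccr7 change within these clusters turned at clustering resolution 1.2 (-0.25) and without WT1 (-0.15), and no direction is read from it.

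In the remaining states edgeR called no receptor without the block on all 4 libraries. In the unnamed clusters 0 of 6 tested were called (0.223% of 10295 genes), in the cycling-like clusters 0 of 5 (0.27% of 9254 genes) and in the interferon-stimulated-like clusters 0 of 4 (0.241% of 7475 genes). Of those tested, 2, 4 and 3 did not overlap between the genotypes, where 39.6%, 39.4% and 38.5% of all genes tested did not. At an unadjusted p under 0.05 in edgeR, 1, 3 and 1 passed, against 10.7%, 8.80% and 7.75% of all genes. Some alternatives without the block did call Cx3cr1, in the cycling-like clusters at resolution 0.4 (edgeR adjusted p = 0.0489), without WT1 (2.85e-05) and without WT2 (0.0374), and in the interferon-stimulated-like clusters without WT2 (0.00875) and without KO2 (0.00223). The Cx3cr1 values nonetheless lay apart in the cycling-like clusters, at 49.7 and 38.8 CPM in WT and 89.1 and 83.7 CPM in Bcl3-/- (log2 fold change 0.93 ± 0.16). With the block, edgeR called Cx3cr1 as higher in the unnamed (adjusted p = 0.00839), cycling-like (9.63e-08) and interferon-stimulated-like clusters (0.0118), and Cxcr3 as lower in the unnamed (0.000391) and cycling-like clusters (0.000644). It also called Ccr2 as higher in the unnamed (adjusted p = 0.0488) and cycling-like clusters (0.0138) and Cxcr6 as lower in the cycling-like clusters (0.0338). The backgrounds of these fits were 8.3%, 5.58% and 2.18%.

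**Figure D4:**
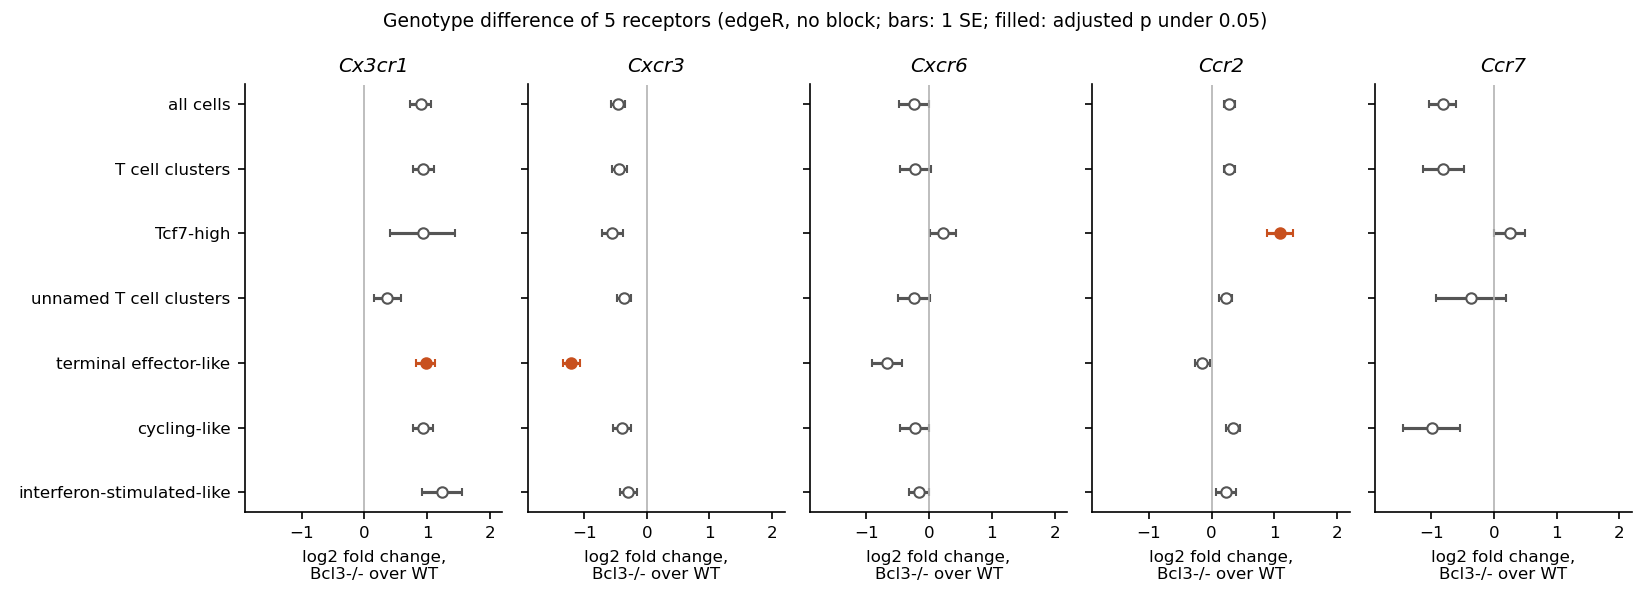
Log2 fold change, Bcl3-/- over WT, of 5 receptors (x axis) by the cells whose UMIs were summed (y axis), from edgeR without a block on 2 against 2 libraries; bars are 1 SE, filled orange points have an adjusted p under 0.05, and a missing point was not tested for low counts. Filled points are Ccr2 in the Tcf7-high clusters (1.09) and Cx3cr1 (0.98) and Cxcr3 (-1.20) in the terminal effector-like clusters.

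The genes whose level followed each receptor over 20 sums (5 T cell states in 4 libraries) were named by the Pearson correlation of log2(CPM + 1) among 6791 genes. For Cx3cr1 they were S1pr5, a receptor for sphingosine-1-phosphate and one of the terminal effector markers (r = 0.94), Snx10 (0.94) and Osbpl3 (0.93). For Cxcr3 they were Vmp1 (0.87), Ly6a, which encodes Sca-1 (0.86), and Psme1, an interferon-induced proteasome activator subunit (0.86). Glrx (0.92) and Crot (0.89) were among them for Cxcr6, and F2rl2 (0.96) and Wdr95 (0.94) for Ccr2. Id3, a transcriptional regulator of memory precursors, and Actn1 were shared by Ccr7 (both 0.96) and Cxcr5 (0.94 and 0.91), beside Dapl1 (0.96) for Ccr7 and Asap1 (0.94) for Cxcr5. For Cxcr4, whose mean was 0.713 CPM, they were Mrps28, Hnrnpa1 and Ppp2r1a (0.86, 0.86 and 0.83). The points share libraries and total depth, so the coefficients are descriptions.

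Of the other genes of the pathway, none of the 4 lists drawn up for them had a member called by edgeR without the block on the full counts of all 4 libraries, in the T cell clusters or over all cells. At equal cells and UMIs, edgeR called Rgs14 (adjusted p = 0.0352) and Cxcl2 (0.0401) over all cells. Leaving out 1 library gave calls of Rgs14 without WT1 (0.00136 over all cells and 0.0173 in the T cell clusters) or KO1 (0.0246, over all cells), and of Xcl1 without WT2 (0.0136 and 0.0295). Over all cells it also gave calls of Cxcl10, Cxcl9 and Cxcr2 without WT1 (0.0193, 0.0144 and 0.0119) and of Cxcl2 and Was without KO1 (0.0129 and 0.0466). DESeq2, also without the block, called Xcl1 (adjusted p = 0.000116), Rgs14 (0.000412), Cxcl10 (0.0337) and Arhgef1 (0.0381) in the T cell clusters among the genes named here, and Xcl1 (2.83e-05), Rgs14 (0.000197), Cxcl9 (0.00851), Cxcl10 (0.0273), Cxcl2 (0.0298), Was (0.0356) and Cxcr2 (0.0405) over all cells. With the block, edgeR called 14.6% of all genes tested in the T cell clusters, against which the list counts stand. Among the 18 other chemokine receptors, 8 had enough counts in the T cell clusters, and with the block edgeR called 2 as higher and 1 as lower (median log2 fold change 0.18, against 0.01 for all genes tested). Cmklr1, the receptor of the attractant chemerin, was 2.70, 2.97, 5.97 and 7.20 CPM (1.201 ± 0.21, adjusted p = 0.103; with the block 3.48e-06). Ccr9, the receptor that leads to the gut, was 2.60, 4.63, 1.56 and 1.90 CPM (-1.06, with the block adjusted p = 0.00320), and Ccr3 was at most 1.05 CPM (1.67, with the block adjusted p = 0.0388). Ccrl2, a receptor that binds but does not signal, was 4.49, 7.54, 4.32 and 4.84 CPM. Cxcr2, the neutrophil receptor, was called with the block over all cells only (2.67, 1.25, 5.87 and 5.34 CPM, adjusted p = 0.00146), and it was at most 1.00 CPM in the T cell clusters. Over all cells the 9 myeloid markers summed to 2770.5, 2624, 3741 and 3953 CPM, higher in both Bcl3-/- libraries. Their part in the calls over all cells was not tested.

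Among 35 chemokine ligands, 14 were tested in the T cell clusters, and the block gave 3 higher and 3 lower (median log2 fold change -0.13), at a background of 14.6% of all genes. Xcl1, which draws cross-presenting dendritic cells, was 8.17 and 3.60 CPM in WT and 0.602 and 1.18 CPM in Bcl3-/- (-2.74 ± 0.50, edgeR adjusted p = 0.117; with the block 3.39e-18), and it is also a marker of the Tcf7-high clusters, which held 316 and 442 cells in WT and 114 and 186 in Bcl3-/-. Cxcl10, an interferon-induced ligand of Cxcr3, was 4.16, 5.60, 1.35 and 2.01 CPM (-1.55 ± 0.29, adjusted p = 0.120; with the block 1.62e-07). Cxcl9, another ligand of Cxcr3, was 3.19, 2.97, 2.11 and 1.70 CPM there and was called over all cells alone (14.3, 18.9, 8.30 and 9.71 CPM, with the block adjusted p = 0.00221). Ccl5, the most abundant ligand, was 21620, 38016, 35807 and 43652 CPM, with WT2 above KO1, and was called as higher with the block (adjusted p = 5.84e-05). Ccl4, next in abundance, was 112, 120, 105 and 92.8 CPM and was called as lower (with the block adjusted p = 0.0157). Ccl9 was 2.97, 8.63, 14.0 and 7.61 CPM and was called as higher (with the block adjusted p = 2.04e-05), although in chimera 2 it was lower in Bcl3-/-. Over all cells the block also called Cxcl2 as higher (adjusted p = 0.0109) and the platelet chemokine Pf4 as lower (0.0443), both at no more than 4.37 CPM.

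Downstream of the receptors, 25 of 29 listed signalling genes were tested in the T cell clusters. The block gave 3 higher and 2 lower (median log2 fold change 0.04), at a background of 14.6% of all genes. Rgs14, a regulator that switches off inhibitory G proteins, was 14.8 and 9.60 CPM in WT and 24.8 and 31.2 CPM in Bcl3-/- (1.18 ± 0.21, edgeR adjusted p = 0.113; with the block 3.66e-20). Its relatives Rgs1, 24.9, 30.7, 19.6 and 22.3 CPM, and Rgs16, 2.32, 2.06, 0.903 and 0.978 CPM, were called as lower with the block (adjusted p = 0.00359 and 0.0116), while Rgs18 was at most 1.10 CPM. Adrbk1, the kinase that desensitises receptors, was 124, 121, 143 and 145 CPM (with the block adjusted p = 0.0189), and Gnb2, a G protein subunit, was 435, 382, 471 and 477 CPM (0.0275). Gnai2, the main inhibitory α subunit of lymphocytes, was 910, 962, 994 and 980 CPM (0.07 ± 0.11).

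Of 26 genes of chemokine-directed migration, 24 were tested in the T cell clusters. The block gave 4 higher and 2 lower (median log2 fold change 0.07), at a background of 14.6% of all genes. Was, the actin regulator of the Wiskott-Aldrich syndrome, was 84.3 and 77.4 CPM in WT and 60.3 and 52.2 CPM in Bcl3-/- (-0.53 ± 0.12, edgeR adjusted p = 0.174; with the block 2.97e-09). Arhgef1 was 375, 365, 472 and 512 CPM (0.40 ± 0.10, adjusted p = 0.179; with the block 6.15e-07). Smaller changes called with the block were those of Arhgdib (0.22), Rap1a (0.22) and Elmo1 (0.24) as higher and Myo1g (-0.20) as lower. Rac2 and Coro1a, the most abundant of the list at 2171 to 3036 CPM, had log2 fold changes of 0.03 and -0.07 and were not called.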

How the data were processed

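The authors sorted the cells, prepared 3′ libraries with the 10x Genomics kit (version 2), ran Cell Ranger 2.2.0 (bcl2fastq 2.17 and mm10 per the submitters' processing notes) and deposited raw UMI counts of all genes for every barcode (737280 a library), neither filtered nor normalized. The annotation used for counting is not given in the sources used here, and gene positions are from GENCODE on GRCm38. From the counts, cells were barcodes of 500 genes or more whose mitochondrial UMIs made up no more than 10%. No doublet caller was run. Clusters were found per library with Seurat 5.3.0 (2000 variable genes less all chemokine receptors, 15 principal components, 20 neighbours, resolution 0.8). A cluster took a name when at least 3 fixed markers were 2-fold above the library's other cells and found in 10% of its cells, with at least 1 among its 10 leading genes, while those of less than 1% of a library were not used. CPM are UMIs scaled to a total of 1000000 in the cells summed.

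Counts were summed and edgeR 4.0.16 was run (quasi-likelihood test after TMM and filterByExpr, Benjamini-Hochberg adjustment over all genes tested, threshold 0.05) in R 4.3.3, without a block, as the study names none, and with the chimera as a block. The numbers 1 and 2 pair the libraries, since each number is 1 animal. The block leaves 1 degree of freedom per gene, so its p-values rest mostly on a spread pooled over genes. The difference between the WT libraries and that between the Bcl3-/- libraries had a correlation of 0.291 across 6863 genes. DESeq2 1.42.0, other filters, equal depth, other clustering resolutions and leaving out each library were alternatives. With 2 libraries against 2, an exact permutation test cannot go below p = 0.33, so none was run. Shares have exact Clopper-Pearson 95% intervals, which, like the limits of 3 counts, cover counting error only. The fits were also run on simulated counts that held no difference between chimeras. These cannot check the block or the spread between animals.

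The 7 receptors, the marker lists and the 4 lists of related genes were chosen with earlier results of these data known. Named genes are the 7 receptors, from each list the members called in any fit over all cells or T cell clusters (at most 6) and the 2 of highest CPM, and the 3 genes most like each receptor among genes of at least 10 CPM. A gene that this rule names is not reported here. Promoter sequences are from RefSeq (GRCm38.p6), which held 5 of the 7.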

Additional observations from a re-analysis of the deposited data

Results flagged for a closer look

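The genotype effect on Cxcr3 differed between the terminal effector-like and the unnamed T cell clusters by -0.83 on the log2 scale, and that on Cx3cr1 by 0.59, in a direct test over states with the library as a block. Both are given because the test of the difference was passed, although for Cx3cr1 it was not at clustering resolution 1.2 (0.25, edgeR adjusted p = 0.708). The markers of the terminal effector-like clusters also summed to more in the Bcl3-/- libraries (8046 and 10041 against 5451 and 6625 CPM), and their part was not tested.

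Among receptors with more than 3 UMIs in all 4 libraries, the chimeras moved in opposite directions in 3 cases, and these differences were not tested. Cxcr6 in the Tcf7-high clusters was 1.77 times the WT level in chimera 1 and 0.761 times in chimera 2. Cxcr5 in the unnamed clusters was 0.798 and 2.07 times, from 6 to 14 UMIs a library, and Ccr7 in the same clusters was 1.34 and 0.626 times. No direction is given for any of them, nor for receptors of fewer UMIs that did the same, such as Cxcr4 in the T cell clusters (0.865 to 0.452 CPM in chimera 1 and 0.114 to 0.720 CPM in chimera 2).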

How the results depend on the processing

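Of the alternative values for single genes, 710 kept their direction and side of the threshold, 94 passed it only under the alternative, 2 lost it (Ccr2 in the Tcf7-high clusters without KO1, and the difference of the Cx3cr1 effect between states at resolution 1.2) and 26 changed sign. The Cx3cr1 and Cxcr3 calls in the terminal effector-like clusters held in all 7 alternatives. The block, which pairs the libraries of a chimera, raised the genes called from 42 to 1116 over all cells, from 30 to 1620 in the T cell clusters, from 39 to 143 (Tcf7-high), 23 to 854 (unnamed), 77 to 419 (terminal effector-like), 25 to 516 (cycling-like) and 18 to 163 (interferon-stimulated-like), and the cause was not tested. Its changes to the receptors' calls are given with the results. DESeq2 called 199 over all cells and 154 in the T cell clusters. Leaving out 1 library gave 40 to 228 genes over all cells, 21 to 80 in the T cell clusters, 53 to 94 (Tcf7-high), 40 to 222 (unnamed), 132 to 429 (terminal effector-like), 38 to 249 (cycling-like) and 46 to 222 (interferon-stimulated-like), where the lone library of a genotype is assumed to vary like the pair of the other.

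At resolution 0.4 the cycling-like fit called 43, and the tests of a difference between states called 47 (cycling-like, 5 at 1.2), 3 (interferon-stimulated-like), 11 (Tcf7-high, 4 at 1.2) and 187 (terminal effector-like). At that resolution, single-state fits of the Tcf7-high, terminal effector-like and interferon-stimulated-like clusters were not run, because only 3 libraries held them (WT1 had no terminal effector-like and KO1 no Tcf7-high or interferon-stimulated-like cluster of at least 1% of its cells). The values at 0.4 for differences between these states thus rest on 1 library of a genotype. At resolution 1.2 the tests of a difference from the unnamed clusters also called Ccr2 (1.33, edgeR adjusted p = 1.64e-05) and Cxcr6 (0.87, 0.00135) in the Tcf7-high clusters, beside the calls in the terminal effector-like clusters given with the results.

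The difference in the share of T cells, Bcl3-/- minus WT in percentage points, moved without thinning to 11.6 for Cx3cr1, -4.43 for Cxcr3, 12.1 for Ccr2, -0.63 for Ccr7 and, with a change of sign, 1.09 for Cxcr6, and at 1500 UMIs to 5.74, -9.91 and 5.96 for Cx3cr1, Cxcr3 and Ccr2. Signs turned at equal depth for Cxcr5 (-0.0675) and Ccrl2 (0.0111) over all cells. With other resolutions they turned for Ccr7 in the Tcf7-high (-0.25) and unnamed clusters (0.11), and for the differences between states of Cxcr3 (0.0551), Cxcr5 (0.10) and Cxcr6 (-0.62) in the Tcf7-high and Ccr7 (0.21) in the terminal effector-like clusters. Leaving out 1 library spanned 0 for Cxcr6 over all cells (-0.54 to 0.12), in the T cell (-0.53 to 0.15), Tcf7-high (-0.10 to 0.58), unnamed (-0.58 to 0.19), cycling-like (-0.57 to 0.0532) and interferon-stimulated-like clusters (-0.37 to 0.00946). It also did so for Cxcr4 in the T cell clusters (-0.61 to 2.30), Ccr7 in the Tcf7-high (-0.15 to 0.78) and unnamed clusters (-0.995 to 0.78), Cxcr5 in the unnamed clusters (-0.26 to 0.93), Gnai2 over all cells (-0.00394 to 0.133) and Rac2 over all cells (-0.0233 to 0.0648) and in the T cell clusters (-0.00199 to 0.0626). None of the values that changed sign was called in the main analysis, while the block called Cxcr6 in the T cell and cycling-like clusters, and resolution 1.2 called the Cxcr6 difference of the Tcf7-high clusters.

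In the Tcf7-high clusters a library held 0 to 3 Cxcr4 UMIs, too few to be tested, and 4 to 24 Cxcr5 UMIs, and the limit this depth sets on a difference was not determined.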

Other observations

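Cd3e, a subunit of the T cell receptor complex, separated the genotypes in every T cell state. It was 381 to 564 CPM in the WT libraries and 665 to 1061 CPM in the Bcl3-/- libraries, while Cd8a ranged from 415 to 685 and 416 to 657 CPM. Cd3e was also higher in Bcl3-/- outside the T cells, in the B-like (108, 73.7, 218 and 198 CPM) and myeloid-like clusters (164, 91.7, 221 and 180 CPM). Red cell markers in the T cell clusters summed to 63.3, 32.7, 9.79 and 192 CPM in WT1, WT2, KO1 and KO2, so that they followed neither the genotype nor the chimera. The promoter of Cxcr4 held 20 CpG dinucleotides in 300 bases, against 5, 4, 3 and 1 for Cx3cr1, Cxcr3, Cxcr6 and Ccr2 and a median of 7 over all promoters in the table.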
